A study of Mus musculus with 28 samples.

Results

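The endothelial genes *Pecam1*, *Cdh5*, *Kdr*, *Flt1*, *Tek*, *Tie1*, *Emcn*, *Egfl7* and *Vwf* were examined in sorted mammary cells, and all 9 were found by Ensembl identifier among the 50600 rows of the counts. They were chosen for their use as markers of endothelium. The libraries came from mammary glands of 7 C57BL/6 mice carrying *PdgfrαCre* and the *R26mTmG* reporter, 4 untreated and 3 treated with estrogen plus progesterone (E+P). In this constitutive reporter, a cell in which Cre expressed from *Pdgfrα* has acted turns from tdTomato to GFP, as does every descendant of it. GFP thus records a history of *Pdgfrα* expression, and tdTomato marks the cells in which the reporter was not switched. *Pdgfra* RNA was also counted in tdTomato+ stroma, at levels given below. Each mouse gave 4 libraries, of GFP+ stroma, tdTomato+ stroma, GFP+ luminal cells and tdTomato+ luminal cells, which makes 8 groups of 4 untreated or 3 E+P libraries and 28 libraries in all. No mouse without Cre was among them. The hormone pellets are described in the methods for wild-type mice.

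Stromal cells were sorted as negative for CD49f and EpCAM, and luminal cells as EpCAM+ with low CD49f. Before that gate, cells stained for CD31, CD45 or Ter119 were removed, and CD31 is the protein made from *Pecam1*. A sort of this kind acts on protein at the cell surface, whereas the values here are RNA.

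Blood vessels are lined by endothelial cells, which grow and survive through the VEGF receptors KDR and FLT1 and are kept quiet and sealed through the angiopoietin receptor TIE2, the product of *Tek*. Cells at their borders are joined by PECAM1 and VE-cadherin, the product of *Cdh5*, and the cells store von Willebrand factor for release at an injury. In the mammary fat pad, capillaries run through the adipose stroma and close around the ducts, and the vascular bed grows when the gland expands under ovarian hormones.

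Between 8623383 and 24583803 reads were counted on genes per library, with a median of 15329083.5. Levels are given as CPM, read counts scaled to library size, on a single TMM scale over the 28 libraries, where 3 counts, taken as the floor, correspond to between 0.116 and 0.302 CPM. The floor covers counting error only, because the reads carry no molecular identifiers. The sorted lineages held the markers of their labels. The summed level of 7 fibroblast genes ran from 31720 to 61140 CPM in GFP+ stroma and from 1791 to 6522 CPM in tdTomato+ stroma, whereas 6 luminal keratin and junction genes summed to between 3832 and 7096 CPM in the luminal libraries and to at most 454.9 CPM in stroma. In tdTomato+ stroma, 12 mural cell genes summed to between 7972 and 11150 CPM and 7 skeletal muscle genes to between 2091 and 19470 CPM. In GFP+ stroma the same lists summed to at most 925.3 and 4.79 CPM.

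The 9 genes did not share a distribution over the sorted cells. Averaged over a group, 56 of the 72 combinations of gene and group lay above the floor. *Flt1*, *Cdh5*, *Pecam1*, *Tie1*, *Emcn* and *Egfl7* were highest in tdTomato+ stroma, *Tek* was highest in GFP+ stroma, *Kdr* overlapped between the stromal subsets, and *Vwf* was highest in tdTomato+ luminal cells. Because these are bulk libraries, fewer cells of a type and less RNA per cell cannot be told apart.

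**Figure D1:**
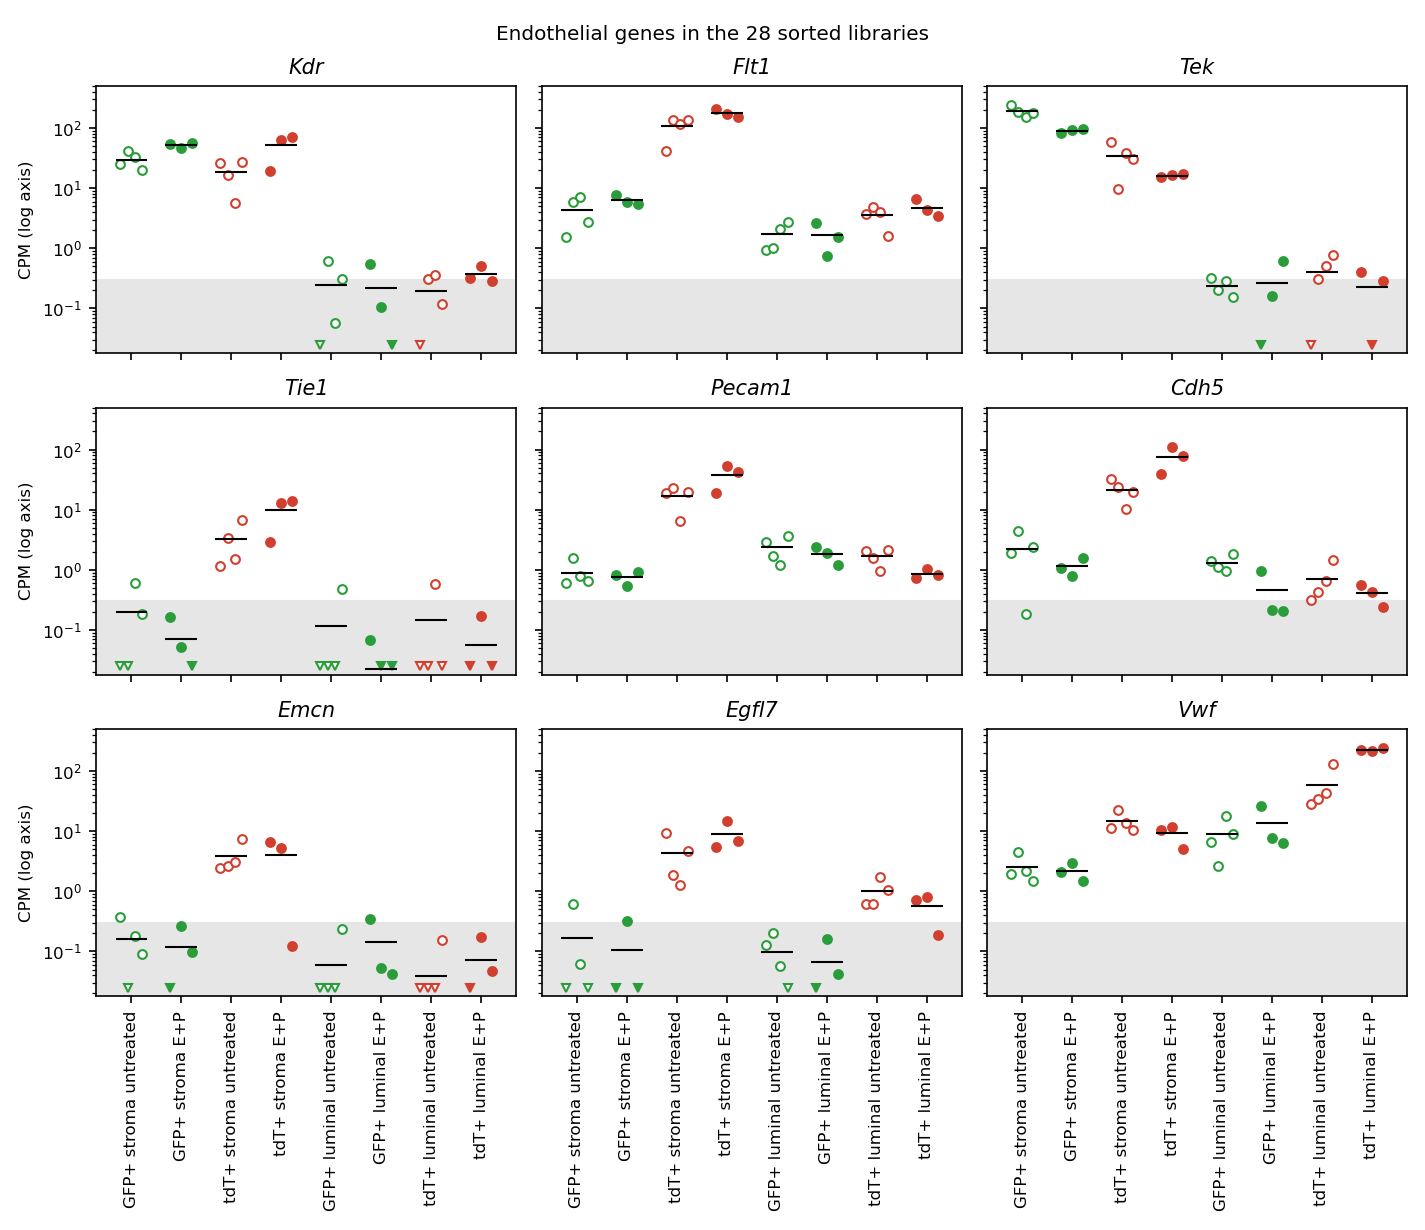
Level of each gene in CPM on a log axis in every library, by sorted population and treatment, with open symbols for untreated and filled symbols for E+P mice and a line at the group mean. Triangles stand for libraries with no count and the grey band reaches the highest 3-count floor of 0.302 CPM. *Tek* peaks in GFP+ stroma, *Vwf* in tdTomato+ luminal cells and most other genes in tdTomato+ stroma.

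Of the 9 genes, 6 have an entry in the RefSeq promoter set for GRCm38.p6, which does not list *Pecam1*, *Cdh5* or *Vwf*. The upstream bases of *Tek*, *Kdr* and *Flt1* are shown because these receptor genes took 3 different distributions in stroma. Each run covers 230 bases, beginning 250 before the annotated start and stopping 20 short of it, read in the direction of the gene. The *Tek* run is chr4:94739039-94739268 on the plus strand, the *Kdr* run chr5:75978476-75978705 on the minus strand and the *Flt1* run chr5:147726032-147726261 on the minus strand.
Tek: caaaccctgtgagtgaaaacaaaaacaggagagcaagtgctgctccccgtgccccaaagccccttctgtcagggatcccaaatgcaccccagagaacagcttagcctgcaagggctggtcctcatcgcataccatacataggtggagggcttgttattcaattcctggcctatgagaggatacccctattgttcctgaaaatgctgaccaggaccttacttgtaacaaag
Kdr: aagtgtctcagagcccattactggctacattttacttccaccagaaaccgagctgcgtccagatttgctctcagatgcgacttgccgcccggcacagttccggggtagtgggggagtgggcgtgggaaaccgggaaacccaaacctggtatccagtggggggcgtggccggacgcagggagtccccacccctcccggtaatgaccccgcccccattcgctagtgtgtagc
Flt1: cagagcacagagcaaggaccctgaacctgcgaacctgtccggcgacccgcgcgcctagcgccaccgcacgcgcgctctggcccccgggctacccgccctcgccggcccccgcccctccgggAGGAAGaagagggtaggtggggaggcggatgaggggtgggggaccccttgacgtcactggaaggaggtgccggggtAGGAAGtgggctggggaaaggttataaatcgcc
Capitals mark the letters AGGAAG, a form of the site for ETS factors, which include endothelial regulators. They also mark AGATAA, a form of the site for GATA factors. Each exact run of letters was searched on both strands, and shorter or other forms of these sites were not searched. *Flt1* held 2 forward AGGAAG matches, and neither of these exact runs of letters was found upstream of *Tek* or *Kdr*. Among 32851 promoters in the set, 27.2% held AGGAAG and 9.49% held AGATAA in a window of the same length, so a match is a description only.

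*Kdr* (ENSMUSG00000062960.10) encodes VEGF receptor 2, the main signalling receptor for VEGF-A, and lies on chromosome 5 at 75932827 to 75978458 of GRCm38. In GFP+ stroma its level was 24.9, 41.9, 33.2 and 19.8 CPM in the untreated mice and 53.6, 46.9 and 56.3 CPM in the E+P mice. In tdTomato+ stroma of the same mice it was 26.0, 16.3, 5.64 and 26.8 CPM and 19.5, 62.9 and 71.3 CPM. The stromal subsets overlapped in both treatments, while all 14 stromal libraries lay above all 14 luminal libraries, of which the highest held 0.604 CPM. *Kdr* therefore ordered as GFP+ E+P stroma at 52.3 ± 4.82 CPM (SD, n = 3), tdTomato+ E+P stroma at 51.2 ± 27.8 CPM (SD, n = 3), GFP+ untreated stroma at 29.9 ± 9.69 CPM (SD, n = 4) and tdTomato+ untreated stroma at 18.7 ± 9.93 CPM (SD, n = 4). No neighbours in that order were separated by their ranges.

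*Kdr* sits beside *Kit* and *Pdgfra* on the chromosome. *Pdgfra*, the gene whose promoter drives Cre in these mice, averaged 2171 CPM in GFP+ and 116.6 CPM in tdTomato+ stroma. *Kit*, a receptor of progenitor and mast cells, averaged 2.59 and 15.7 CPM. *Kdr* thus followed neither neighbour across the stromal subsets.

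*Flt1* (ENSMUSG00000029648.13; chromosome 5, 147561604 to 147726011) encodes VEGF receptor 1, which binds VEGF as a membrane receptor or as a secreted form that gene counts do not separate. In tdTomato+ stroma it reached 41.3, 136.5, 118.7 and 135.7 CPM in untreated mice and 206.1, 169.9 and 154.4 CPM after E+P. In GFP+ stroma it was 1.51, 5.97, 7.25 and 2.75 CPM untreated and 7.63, 5.91 and 5.36 CPM after E+P. Every tdTomato+ stromal library was above every GFP+ stromal library. The luminal libraries held between 0.754 and 6.49 CPM, a range that overlapped GFP+ stroma.

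*Tek* (ENSMUSG00000006386.15; chromosome 4, 94739289 to 94874976) encodes TIE2, the receptor for the angiopoietins. Its level in GFP+ stroma was 243.4, 187.1, 153.2 and 177.2 CPM in untreated mice and 81.5, 91.4 and 97.5 CPM after E+P. In tdTomato+ stroma it was 57.8, 9.57, 38.4 and 31.1 CPM untreated and 15.4, 16.3 and 16.9 CPM after E+P. Each step from untreated GFP+ stroma at 190.2 ± 38.2 CPM (SD, n = 4), to E+P GFP+ stroma at 90.1 ± 8.07 CPM (SD, n = 3), to untreated tdTomato+ stroma at 34.2 ± 19.9 CPM (SD, n = 4) was free of overlap, and only the 2 tdTomato+ groups overlapped. In luminal cells *Tek* was at most 0.776 CPM. *Tie1* (ENSMUSG00000033191.14; chromosome 4, 118471191 to 118490061), an orphan receptor that forms a complex with TIE2, was distributed otherwise. It had 1.14, 3.43, 1.53 and 6.80 CPM in tdTomato+ stroma of untreated mice and 2.86, 12.9 and 13.9 CPM in that of E+P mice. In the other 6 groups it averaged 0.0227 to 0.198 CPM and no library held more than 10 counts.

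The junction genes *Pecam1* and *Cdh5* shared the tdTomato+ stromal peak. *Pecam1* (ENSMUSG00000020717.19; chromosome 11, 106654217 to 106750628) was at 18.6, 23.1, 6.5 and 19.7 CPM in untreated and 18.7, 53.6 and 43.0 CPM in E+P tdTomato+ stroma. *Pecam1* was thus present in all 7 libraries of a population from which cells stained for its protein had been removed. In the other 21 libraries it ran from 0.528 to 3.69 CPM, above the floor in each. *Cdh5* (ENSMUSG00000031871.9; chromosome 8, 104101625 to 104144511) was at 32.4, 23.6, 10.1 and 19.6 CPM in untreated and 38.8, 108.3 and 78.1 CPM in E+P tdTomato+ stroma. Elsewhere it was at most 4.49 CPM, in an untreated GFP+ stromal library.

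*Emcn* (ENSMUSG00000054690.17; chromosome 3, 137341067 to 137432185) encodes endomucin, a sialoglycoprotein of capillary and venous endothelium. It was at 2.47, 2.62, 3.12 and 7.28 CPM in tdTomato+ stroma without treatment, and at 6.53, 5.29 and 0.122 CPM after E+P. The last of these was a single library with 2 counts, below the floor, in which *Cdh5*, *Pecam1* and *Tie1* were high. *Egfl7* (ENSMUSG00000026921.18; chromosome 2, 26580014 to 26593120) encodes a factor secreted by endothelium and hosts miR-126 in an intron. It was at 9.5, 1.90, 1.26 and 4.66 CPM in untreated and 5.36, 15.0 and 6.79 CPM in E+P tdTomato+ stroma. It was also above the floor in all 7 tdTomato+ luminal libraries, at 0.190 to 1.74 CPM, and in 0 of 7 GFP+ luminal libraries. *Egfl7* overlaps *Agpat2* on the other strand, which had 3900 counts over all libraries against 837 for *Egfl7*, and since the strand setting of the counting is not given in the sources used here, reads of the pair may not be fully separated.

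*Vwf* (ENSMUSG00000001930.17; chromosome 6, 125546774 to 125686679) encodes the carrier of factor VIII, which tethers platelets to damaged vessels. Its highest levels were in tdTomato+ luminal cells, at 28.7, 33.9, 43.4 and 129.2 CPM in untreated mice and 220.9, 217.7 and 239.4 CPM after E+P. In GFP+ luminal cells it was 6.65, 2.62, 18.1 and 8.88 CPM untreated and 26.7, 7.81 and 6.24 CPM after E+P. In tdTomato+ stroma it was 11.4, 22.8, 13.7 and 10.5 CPM and 10.6, 11.9 and 5.02 CPM, and in GFP+ stroma it was at most 4.49 CPM. Both tdTomato+ luminal groups lay above every other group, and the groups next in order overlapped.

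To set levels of different genes side by side, CPM was divided by the merged length of all annotated exons of a gene. Per kilobase of exon, the leading gene differed between populations. In untreated GFP+ stroma *Tek* stood at 40.4 CPM per kb, ahead of *Kdr* at 3.32 CPM per kb, and then *Cdh5* at 0.533 CPM per kb. In untreated tdTomato+ stroma the first 3 were *Flt1* at 8.0, *Tek* at 7.26 and *Cdh5* at 5.09 CPM per kb, and their ranges overlapped. After E+P the order there was *Cdh5* at 17.9, *Flt1* at 13.1 and *Pecam1* at 6.17 CPM per kb. The ranges of *Cdh5* (9.24 to 25.8) and *Flt1* (11.4 to 15.3) overlapped, so their order was not resolved. In tdTomato+ luminal cells *Vwf* led with 3.66 CPM per kb untreated and 14.1 CPM per kb after E+P, and the second gene was at most 0.352 CPM per kb.

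**Figure D2:**
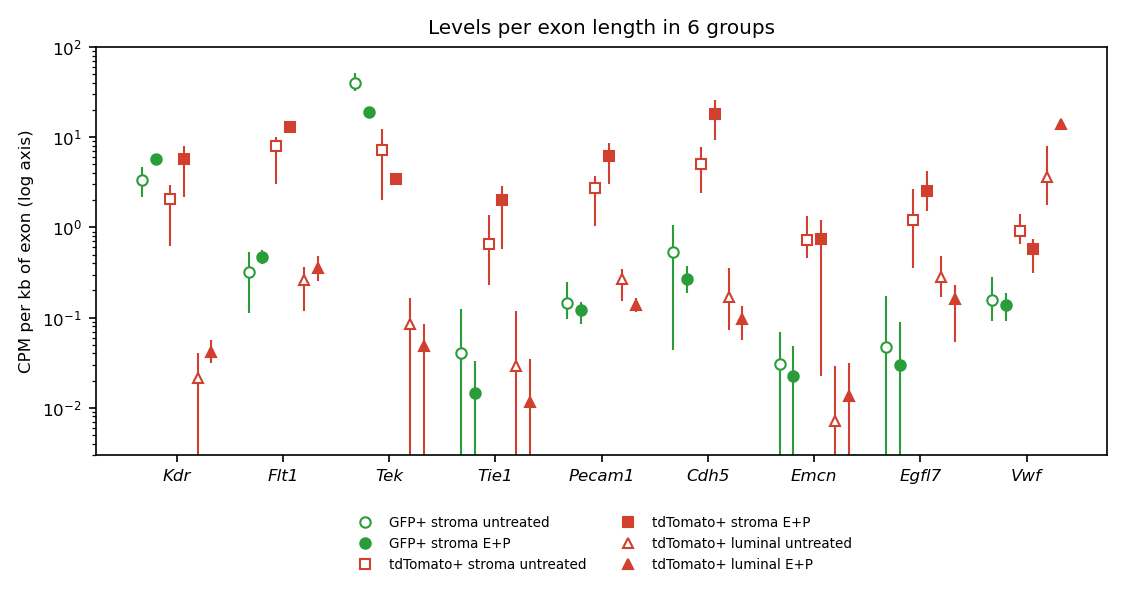
Mean level in CPM per kilobase of annotated exon, on a log axis, for the 9 genes in 6 of the 8 groups, with a line from the lowest to the highest library. Open symbols are untreated and filled symbols E+P groups, and lines that reach the lower edge include libraries without counts. *Tek* leads GFP+ stroma and *Vwf* leads tdTomato+ luminal cells.

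To ask where endothelial RNA differed between the stromal subsets, tdTomato+ and GFP+ stroma were compared by edgeR's quasi-likelihood test, two-sided, with p values adjusted over 17783 genes and called at the 0.01 used in the study. Over both treatments 8 of the 9 genes were called, against 42.0% of all genes tested, so many genes differed between these subsets. *Flt1*, *Cdh5*, *Pecam1*, *Tie1*, *Emcn*, *Egfl7* and *Vwf* were higher in tdTomato+ stroma, *Tek* was lower and *Kdr* was not called. Genes called higher made up 21.3% of all tested and genes called lower 20.6%.

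By log2 fold change, *Tie1* rose most, by 5.53 ± 0.77 (SE; edgeR adjusted p = 1.85e-05), followed by *Egfl7* at 5.42 ± 0.81 (4.61e-05) and *Pecam1* at 4.95 ± 0.36 (1.26e-08). *Flt1* was higher by 4.73 ± 0.38 (4.1e-07), *Emcn* by 4.68 ± 0.78 (8.55e-05), *Cdh5* by 4.67 ± 0.51 (6.36e-06) and *Vwf* by 2.31 ± 0.30 (4.86e-06). Each of the 7 was higher in the tdTomato+ cells of 7 of 7 mice. *Tek* changed by -2.46 ± 0.29 (edgeR adjusted p = 1.21e-05) and was lower in 7 of 7 mice. *Kdr* differed by -0.34 ± 0.36 (edgeR adjusted p = 0.446), with an approximate 95% interval from -1.04 to 0.35, and was higher in the tdTomato+ cells of 4 of 7 mice. For *Tie1*, *Emcn* and *Egfl7* the mean GFP+ level was at or under the floor. These 3 genes passed the low-count filter through the tdTomato+ libraries, so their direction was fixed by the filter, and the fitted size depends on few counts. An exact sign-flip test over the 7 mice gave p = 0.0156 for each of the 8 called genes, the smallest value it can give. For *Tie1*, *Emcn* and *Egfl7* that value adds no support, because their direction was fixed.

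Within each treatment the same 8 genes were called, among them *Tie1*, *Emcn* and *Egfl7*, whose direction was fixed by the filter. In untreated mice 8 of 9 genes were called, against 28.5% of all genes, and after E+P 8 of 9 against 28%. The difference for *Tek* was -2.46 ± 0.38 untreated and -2.46 ± 0.44 after E+P. For *Cdh5* it was 3.31 ± 0.63 untreated and 6.03 ± 0.80 after E+P, and for *Kdr* it was -0.67 ± 0.47 and -0.02 ± 0.53. With the mouse as a block, *Emcn* after E+P had an edgeR adjusted p of 0.0135, and the count there was 7. Several calls within a treatment rested on the full set of mice. After E+P, *Tek* missed the threshold without any one of the 3 mice (edgeR adjusted p = 0.0101, 0.0123 and 0.0114 without replicates 1, 2 and 3), as did *Emcn* without replicate 1 or 2 (0.0435 and 0.0181), *Vwf* without replicate 1 (0.0213) and *Egfl7* without replicate 3 (0.0105). In untreated mice *Cdh5* and *Egfl7* missed it without replicate 1 (0.012 and 0.0187), *Tie1* without replicate 2 (0.0174), *Emcn* without replicate 3 (0.0119), and *Tie1*, *Emcn* and *Egfl7* without replicate 4 (0.0299, 0.02 and 0.0154). The lowest counts were 5 of 9, without E+P replicate 1 after E+P and without untreated replicate 4 in untreated mice. Without a low-count filter *Kdr* was called lower in untreated tdTomato+ stroma, at -0.70 (edgeR adjusted p = 0.00214). With the filter its adjusted p was 0.292, and it was higher in the tdTomato+ cells of 2 of 4 untreated mice.

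**Figure D3:**
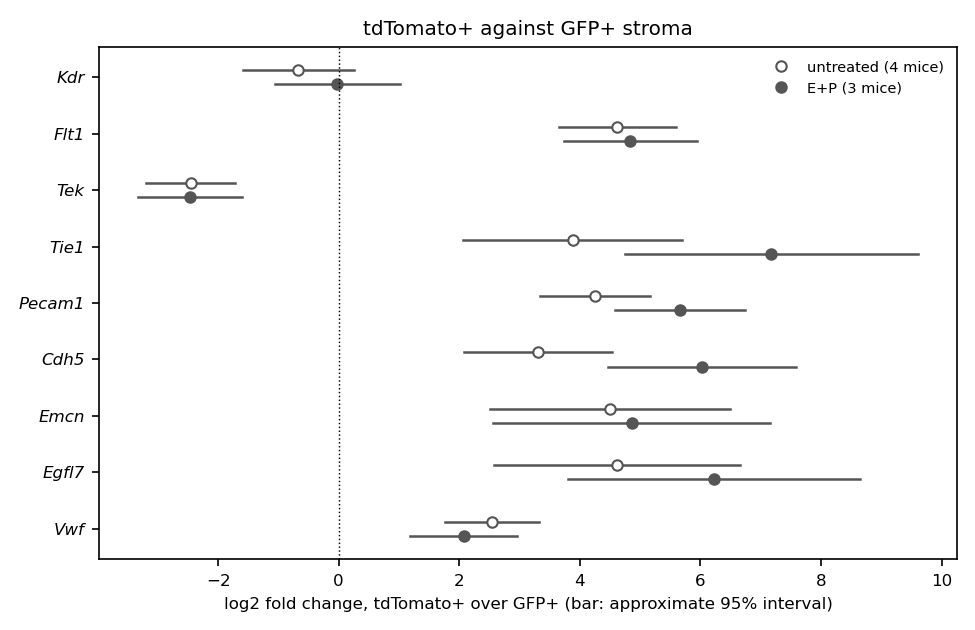
Log2 fold change of the 9 genes in tdTomato+ over GFP+ stroma from edgeR, in untreated (open, n = 4 mice) and E+P mice (filled, n = 3 mice), with approximate 95% intervals. *Tek* lies below 0 in both treatments, the intervals of *Kdr* (-0.67 untreated, -0.02 after E+P) include 0, and the other 7 genes lie above 0.

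Other endothelial genes gave a similar mixture. Of 34 further genes of blood endothelium, 33 were tested, 20 were higher and 2 lower in tdTomato+ stroma over both treatments, with a median log2 fold change of 2.23 against 0.0104 for all genes, or 1.89 with genes absent from GFP+ stroma set at the lowest fold their floor allows. *Esam*, an adhesion molecule of endothelial junctions, averaged 91.9 CPM in tdTomato+ and 0.812 CPM in GFP+ stroma, a log2 fold change of 6.80 ± 0.20 (edgeR adjusted p = 1.11e-13). *Cldn5*, the tight-junction claudin of endothelium, had no counts in any GFP+ stromal library and was at least 12.8-fold higher in tdTomato+ stroma, relative to 3 counts per library. *Tal1*, a transcription factor of blood and vessel cells, was likewise at least 8.85-fold higher. *Cldn5*, *Tal1* and *Gpihbp1*, all without counts in GFP+ stroma, passed the low-count filter through the tdTomato+ libraries. Their direction was fixed by the filter, so they add no support to the count of 20. Other genes near the floor in GFP+ stroma were not counted apart. The 2 genes that were lower were *Ramp2*, which pairs with the adrenomedullin receptor, at 5.49 against 38.1 CPM (log2 fold change -2.80 ± 0.27, adjusted p = 3.31e-07), and *Clec14a*, an endothelial lectin, at 4.57 against 33.2 CPM (-2.80 ± 0.29, 8.89e-07).

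All 7 lymphatic endothelial genes were called, 6 of them higher. *Lyve1*, the hyaluronan receptor of lymphatic vessels, averaged 36.9 CPM in tdTomato+ and 0.0539 CPM in GFP+ stroma, and *Flt4*, the receptor for VEGF-C and VEGF-D, 15.7 and 0.149 CPM. Both GFP+ means were under the floor, so these genes passed the low-count filter through the tdTomato+ libraries. Their direction was therefore fixed by the filter, and their part in the count of 6 adds no support. *Pdpn*, podoplanin, which fibroblasts also make, was lower at 43.0 against 140.7 CPM (log2 fold change -1.72 ± 0.27, edgeR adjusted p = 0.000118). Of 10 ligands and co-receptors of the VEGF and angiopoietin receptors, 0 were higher and 5 lower in tdTomato+ stroma over both treatments. At an unadjusted p under 0.05, 1 was higher, and this list was not counted by other tools. The largest changes were in *Vegfd*, at 5.71 against 92.8 CPM (-4.10 ± 0.23, 1.08e-09), *Vegfc*, at 4.46 against 11.1 CPM (-1.32 ± 0.26, 0.000394), and *Vegfa*, at 228.8 against 355.7 CPM (-0.65 ± 0.11, 8.52e-05).

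Genes of several other cell kinds also differed between the stromal subsets. In tdTomato+ stroma 11 of 12 mural genes were higher, led by *Higd1b*, *Rgs5* and *Des*, as were 7 of 7 skeletal muscle genes, 4 of 4 erythroid genes tested and 3 of 6 leukocyte genes tested, and 7 of 7 fibroblast genes were lower. The erythroid genes together summed to at most 0.59 CPM in GFP+ stroma. They passed the low-count filter through tdTomato+ stroma, so their direction was fixed and their calls add no support. The muscle genes summed to at most 4.79 CPM in GFP+ stroma, which left little room for the other direction. In the other lists, genes near the floor in GFP+ stroma were not counted apart. *Ptprc*, which encodes CD45, was at 6.24 to 18.9 CPM in tdTomato+ stroma and at most 0.681 CPM in GFP+ stroma. Hence markers of all 3 lineages excluded by antibody were present as RNA in tdTomato+ stroma, *Pecam1* with CD31, *Ptprc* with CD45 and the erythroid genes with Ter119. The part of other cell kinds in the endothelial differences was not tested.

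**Figure D4:**
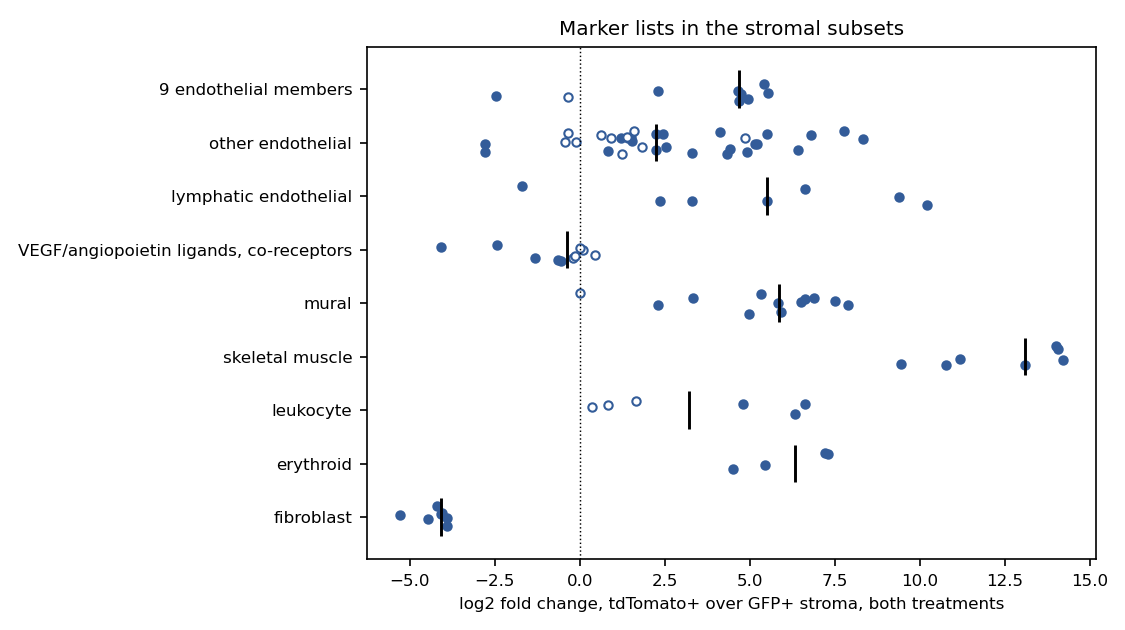
Log2 fold change of each gene tested in 9 lists, tdTomato+ over GFP+ stroma over both treatments, with filled points for an edgeR adjusted p under 0.01 and a bar at the median of the list. The endothelial and mural lists lie mostly above 0 and the fibroblast list below 0, and single endothelial genes lie on the fibroblast side. Genes at or under the floor in GFP+ stroma could be called only above 0.

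The response of these genes to E+P was compared between different mice, 3 against 4. In tdTomato+ stroma 0 of 9 genes were called by edgeR, against 0.124% of all genes, 0 by DESeq2 and 0 by limma-voom, while 4 had an unadjusted p under 0.05. These were *Cdh5*, with a log2 fold change of 1.81 ± 0.58 (edgeR adjusted p = 0.152), *Pecam1* at 1.18 ± 0.40 (0.158), *Kdr* at 1.46 ± 0.50 (0.181) and *Tek* at -1.07 ± 0.41 (0.222). Markers of other cell types moved in the same comparison. The fibroblast genes summed to between 2340 and 6522 CPM in untreated and 1791 to 2302 CPM in E+P libraries, with 7 of 7 lower at an unadjusted p under 0.05. The luminal epithelial genes summed to 18.2 to 454.9 CPM and 3.49 to 37.6 CPM, with 5 of 6 lower at that p. By edgeR 0 genes of either list were called, and their part in the endothelial values was not tested. The share of all genes at an unadjusted p under 0.05 was not counted, so counts at that p are a description only. For *Cdh5* the 3 E+P libraries lay above the 4 untreated ones, and an exact permutation test gave p = 0.0286, the smallest possible. *Flt1* was also free of overlap, with a log2 fold change of 0.71 ± 0.44 (edgeR adjusted p = 0.46; exact p = 0.0857). In a fit without a low-count filter 5 of 9 were called. The share of all genes called in that fit is not given, so this count is a description only. Without untreated replicate 2, whose *Tek* level of 9.57 CPM was the lowest, only *Tek* was called, with a log2 fold change of -1.4 (edgeR adjusted p = 0.00561). Of the further blood and lymphatic endothelial genes, 0 of 33 and 0 of 7 were called by edgeR, with 7 and 2 at an unadjusted p under 0.05, and these lists were not counted by other tools.

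In GFP+ stroma 0 of 9 genes were called by edgeR after E+P, against 0.231% of all genes, 0 by DESeq2 and 0 by limma-voom, and 1 had an unadjusted p under 0.05. That gene was *Tek*, which differed by -1.07 ± 0.39 (edgeR adjusted p = 0.408), with all 3 E+P libraries below all 4 untreated libraries (exact permutation p = 0.0286). In a fit of the GFP+ stromal libraries alone *Tek* had an adjusted p of 0.00104. Without a low-count filter 2 of 9 were called, a description only, since the share of all genes called there is not given. *Kdr* differed by 0.81 ± 0.50 (edgeR adjusted p = 0.801; exact p = 0.0571). The estimates for *Tek* lay close together in the subsets, and the difference between them was -0.01 ± 0.52 log2 units, with an approximate 95% interval from -1.03 to 1.02. The difference between the subsets in the response of *Cdh5* was 2.72 ± 0.95 (edgeR adjusted p = 0.334). By edgeR 0 of 9 genes were called in that test, against 0.0450% of all genes, 0 by DESeq2 and 0 by limma-voom, and 1 had an unadjusted p under 0.05.

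**Figure D5:**
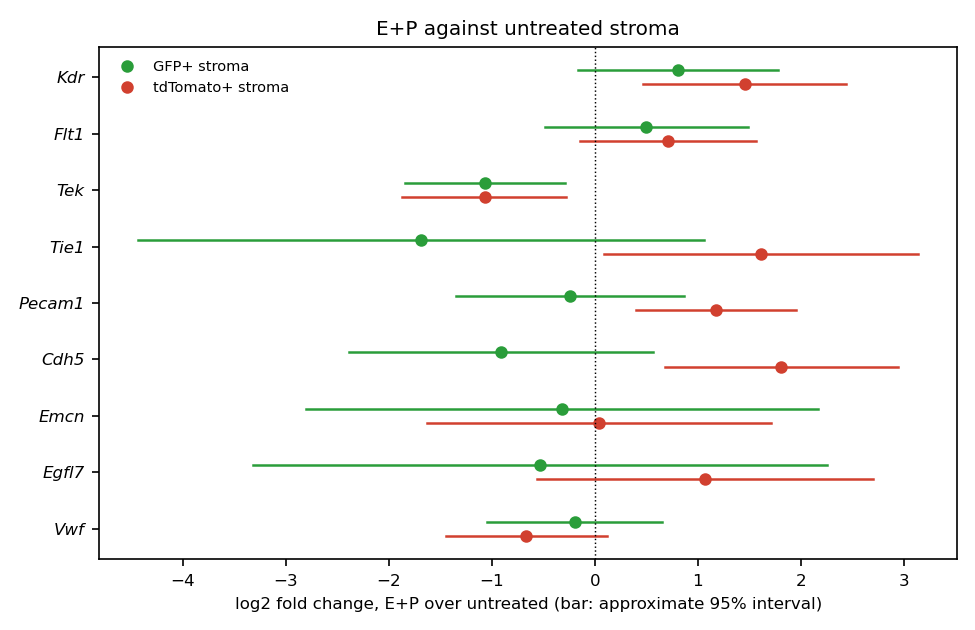
Log2 fold change of the 9 genes in E+P over untreated mice in GFP+ and tdTomato+ stroma from edgeR, with approximate 95% intervals that are not adjusted for the number of genes (n = 3 against 4 mice). None of the 18 comparisons was called; *Tek* lies below 0 and *Kdr* above 0 in both subsets.

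In luminal cells only *Vwf*, *Pecam1*, *Egfl7*, *Flt1* and *Cdh5* passed the low-count filter. Between the luminal subsets over both treatments 3 of these 5 were called, all higher in tdTomato+ cells, against 34.7% of all genes tested, 19.0% higher and 15.7% lower. *Vwf* differed by a log2 fold change of 3.40 ± 0.51 (edgeR adjusted p = 0.000181) and *Egfl7* by 3.16 ± 0.63 (0.000908), and both were higher in 7 of 7 mice. *Egfl7* was under the floor in all 7 GFP+ luminal libraries and passed the filter through the tdTomato+ ones, so its direction was fixed by the filter and its fitted size depends on few counts. *Flt1* differed by 1.31 ± 0.35 (edgeR adjusted p = 0.0071; 0.0123 with the mouse as a block) and was higher in 6 of 7 mice. The call for *Flt1* was also lost with scaling by library size (0.0135) and without any one of 6 of the 7 mice, all but untreated replicate 4 (0.0116 to 0.0349). *Pecam1* went the other way by -0.75 ± 0.31 (edgeR adjusted p = 0.0568), lower in 7 of 7 mice.

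Within untreated luminal cells *Vwf* and *Egfl7* were called, 2 of 5 against 15.4% of all genes, with adjusted p values of 0.00946 and 0.008. With the mouse as a block these were 0.011 and 0.0186, and 0 were called. After E+P 1 of 5 was called, *Vwf*, at 4.11 ± 0.79 (edgeR adjusted p = 0.00147), against 25.4% of all genes. Without E+P replicate 2 or without E+P replicate 3 that count was 0, with *Vwf* at adjusted p values of 0.0233 and 0.0194.

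*Vwf* was the member with the largest E+P difference in tdTomato+ luminal cells. Its 3 E+P libraries, at 217.7 to 239.4 CPM, lay above the 4 untreated libraries, of which 3 were under 43.4 CPM and replicate 4 was at 129.2 CPM. The log2 fold change was 1.97 ± 0.65 (edgeR adjusted p = 0.0402; exact permutation p = 0.0571). By edgeR 0 of 5 genes were called there, against 14.1% of all genes, 0 by DESeq2 and 1, *Vwf*, by limma-voom, and 1 had an unadjusted p under 0.05. In GFP+ luminal cells 0 of 5 were called by edgeR, against 5.96% of all genes, 0 by DESeq2 and 0 by limma-voom, and 1, *Cdh5*, had an unadjusted p under 0.05. *Cdh5* was at 0.971 to 1.81 CPM untreated and 0.208 to 0.952 CPM after E+P, a log2 fold change of -1.57 ± 0.67 (edgeR adjusted p = 0.134; exact permutation p = 0.0286). The difference between the luminal subsets in the response of *Vwf* was 1.43 ± 0.94 (edgeR adjusted p = 0.411), and 0 of 5 genes were called in that test by edgeR, DESeq2 or limma-voom, with 0 at an unadjusted p under 0.05, against 2.27% of all genes.

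In tdTomato+ luminal cells the 34 further blood endothelial genes summed to between 21.1 and 45.2 CPM, and of 10 tested between the luminal subsets 1 was higher and 3 lower in tdTomato+ cells, among them *Ecscr*, a small endothelial membrane protein, at 3.86 against 10.8 CPM (-1.37 ± 0.30, edgeR adjusted p = 0.00208). *Vwf* is also made by megakaryocytes and carried by platelets. Of 8 platelet genes, *Pf4*, *Gp9* and *Treml1* had 0 counts in all 14 luminal libraries, and the list summed to between 1.58 and 5.73 CPM there, nearly all of it *Itga2b*. *Gp6*, *Gp1ba* and *Gp1bb* each had counts in at least 1 luminal group. *Ptprc* was at most 0.514 CPM in luminal libraries. The source of the *Vwf* RNA in luminal cells was not tested. The ligand *Vegfa* averaged 378.6 CPM in tdTomato+ and 99.2 CPM in GFP+ luminal cells (1.98 ± 0.37, edgeR adjusted p = 0.000936), while *Vegfc*, at 1.4 against 9.20 CPM, and *Angpt1*, at 5.95 against 27.2 CPM, were lower in tdTomato+ cells. After E+P, *Nrp1*, a co-receptor of KDR, fell from 8.35 to 0.985 CPM in tdTomato+ luminal cells (-3.07 ± 0.32, edgeR adjusted p = 2.12e-05) and from 1.94 to 0.478 CPM in GFP+ luminal cells (-2.0 ± 0.33, 0.00192).

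Stromal and luminal cells of the same reporter, which came from the same mice, were compared in a fit of all 28 libraries without the mouse. In tdTomato+ cells 9 of 9 genes were called, against 59.3% of all genes (31.9% higher and 27.4% lower), 8 of them higher in stroma and *Vwf* lower. *Kdr* differed by a log2 fold change of 6.85 ± 0.54 (edgeR adjusted p = 9.1e-11) and *Tek* by 6.32 ± 0.48 (5.8e-11), with intervals that overlapped, whereas *Vwf* differed by -3.31 ± 0.44 (6.15e-07). In GFP+ cells 5 of 9 were called, against 52.5% of all genes (27.7% higher and 24.8% lower). In both reporters *Kdr*, *Tek*, *Tie1* and *Emcn* were near or under the floor in luminal cells, with libraries at 0 counts, so the fitted size of their differences depends on few counts. *Tie1* and *Emcn* passed the low-count filter through tdTomato+ stroma alone. Their direction in tdTomato+ cells was therefore fixed by the filter, and their calls there add no support. *Kdr* and *Tek* passed the filter through the stromal libraries. With luminal levels near the floor they could be called only higher in stroma, so their direction and its count of mice add no support. In GFP+ cells the means of *Tie1*, *Emcn* and *Egfl7* were at or under the floor in stroma and luminal cells alike. They entered the fit through tdTomato+ stroma and carry no comparison here. *Tek* at 8.86 ± 0.51 (4.01e-13) and *Kdr* at 7.63 ± 0.57 (3.49e-11) were higher in stroma in 7 of 7 mice, and *Flt1* at 1.66 ± 0.37 (0.000477) was higher in 7 of 7. *Vwf* at -2.23 ± 0.46 (0.000205) and *Pecam1* at -1.32 ± 0.34 (0.00172) were lower in GFP+ stroma than in GFP+ luminal cells, *Pecam1* in 7 of 7 mice and *Vwf* in 6 of 7. The call for *Pecam1* was lost without untreated replicate 1 or 4 or E+P replicate 2 (0.0125, 0.0136 and 0.015). With limma-voom only *Tek* and *Kdr* were called in GFP+ cells.

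The genes also varied differently among the 7 tdTomato+ stromal libraries. After the mean of each treatment was removed, Pearson's r of log2 CPM was 0.918 between *Pecam1* and *Cdh5*, 0.916 between *Pecam1* and *Kdr* and 0.892 between *Cdh5* and *Kdr*. *Flt1* had r = -0.54 with *Cdh5* and -0.395 with *Kdr*, and *Tek* had r = -0.00359 with *Cdh5*. With 7 libraries that share an expression scale, these values are a description. Over all 28 libraries, the genes whose log2 CPM was most like the mean of the 9 were *Sept4* and *Kctd10* (both r = 0.973) and *Snrk* (r = 0.968). Of the 10 nearest genes, 2 were on the mural list, *Des* and *Kcnj8*, and 0 on an endothelial list. Within the tdTomato+ stromal libraries the nearest were *Rgs9* (r = 0.989), *Gm47512* (0.988) and *Gm48249* (0.98), and 0 of the 10 nearest were on any list. Both rankings took the highest r among the other genes of the 19569 in the all-library fit. With 7 libraries, high values can arise in such a search without a shared source, so they are a description only.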

How the data were processed

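RNA-seq libraries of FACS-sorted mammary cells were analysed from raw gene counts, which the authors deposited without normalization. A stranded kit for low input of total RNA was used, and the submitters' processing notes name STAR 2.5.2a and GRCm38.p5. The paper reports a wide range of RNA quality and a fragmentation time adapted to RNA of lower quality. The RNA quality of single libraries was not used here. The GENCODE release and strand setting of the counting are not given in the sources used here. GENCODE M21 gave the symbols and positions, and held 50376 of the 50600 identifiers. Groups and replicate numbers were read from the titles. No library duplicated another (0 identical pairs), and 8623383 to 24583803 reads were counted per library.

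Genes passing filterByExpr (17783 for stroma, 16538 for luminal cells, 19569 for both together) were scaled by TMM. They were tested two-sided with edgeR 4.0.16 under R 4.3.3, by its robust quasi-likelihood model of group means, without the mouse. Benjamini-Hochberg adjusted p values cover all genes of a comparison, with a threshold of 0.01. The SE is the absolute log2 fold change over the root of F. Correlations use log2 CPM with a prior count of 2. In all, 108 exact tests of single genes were computed on group labels or on sign flips within mice, and their p values are unadjusted. Counts of genes at an unadjusted p under 0.05 stand without the share of all genes at that p, which was not counted.

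The 9 genes were described in each comparison. Other lists gave at most 3 genes per direction, those with the largest fold among called genes with at least 1 CPM and the same side in every mouse, and the 10 genes most like the members were ranked. *Pf4*, *Gp9* and *Treml1* were named after their values were seen. The members and lists were chosen with earlier results of these data known. Alternatives were DESeq2 1.42.0, limma-voom 3.58.1, other scalings, no filter, an adjusted p of 0.05, a replicate block, a fit restricted to the compared groups, and omission of single mice.

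Libraries of one mouse carry its number in their titles, which pairs them. Their deviations from group means correlated on average at 0.0496 between stromal subsets and at 0.157 between luminal subsets. The fits were tested on simulated counts of 17173 genes, where 53.2% of genes changed 4-fold and 16.5% of genes changed 2-fold by E+P in tdTomato+ stroma were called.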

Additional observations from a re-analysis of the deposited data

Results flagged for a closer look

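In untreated tdTomato+ stroma, replicate 1 had 41.3 CPM of *Flt1*, whereas the other 3 libraries held 118.7 to 136.5 CPM. Its gap to the nearest library was 0.883 of the range of the group on the log2 scale, above the critical value of Dixon's test for 4 samples. It was 1 of 28 such tests of a gene in a group of 4, and chance flags about 1 in 20. In the same library *Tek*, *Cdh5* and *Egfl7* were the highest of the 4, at 57.8, 32.4 and 9.5 CPM.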

How the results depend on the processing

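The number of the 9 genes called between the stromal subsets over both treatments was 8 under every alternative, and between tdTomato+ stroma and tdTomato+ luminal cells it was 9. Elsewhere limma-voom called 5 genes between the untreated stromal subsets, 7 between those of E+P mice (*Emcn* lost, adjusted p = 0.107), 1 between the untreated luminal subsets, 1 for E+P in tdTomato+ luminal cells and 2 between GFP+ stroma and GFP+ luminal cells. Without a low-count filter 5 genes were called for E+P in tdTomato+ stroma, 2 for E+P in GFP+ stroma, 1 for the difference of these responses and 1 between the untreated luminal subsets. These calls changed at nearly the same fold change. *Cdh5* for E+P in tdTomato+ stroma was at 1.835 without the filter and 1.812 with it. Its edgeR adjusted p was 3.18e-13 and 0.152, and the reason was not tested. An adjusted p of 0.05 gave 3 genes between the luminal subsets after E+P and 1 for E+P in tdTomato+ luminal cells, and scaling by library size gave 1 gene between the untreated luminal subsets. A fit of only the groups compared gave 1 gene for E+P in GFP+ stroma and 0 between the untreated luminal subsets, where the replicate block by mouse also gave 0; beside the values printed above, the block by mouse changed no other call. The replicate number as a block between untreated and E+P mice, which are different animals, left each of those counts at 0. Beside the counts under these alternatives the share of all genes called is not given, so they are a description only.

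Leaving out a mouse gave 5 to 8 genes between the stromal subsets in untreated mice and 5 to 8 after E+P, 0 to 1 for E+P in tdTomato+ stroma, 0 to 1 between the untreated luminal subsets, 0 to 1 between the luminal subsets after E+P, 2 to 3 between them over both treatments (*Flt1* lost) and 4 to 5 between GFP+ stroma and GFP+ luminal cells (*Pecam1* lost). The cause of these changes was not tested, beyond the smaller number of libraries. *Kdr* between the stromal subsets after E+P changed sign, to 0.028 with DESeq2 size factors, 0.035 by library size and 0.028 in DESeq2, and ran from -0.27 to 0.38 when a mouse was left out, the highest without E+P replicate 1. It was not called in any of these. Of the 9 genes' mean levels, 56 of 72 lay above the floor in the scaling reported. At these depths a mean under 0.302 CPM could not be told from the floor in every library.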
